A study of Mus musculus with 8 samples.

Results

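The 9 genes described here sense double-stranded RNA, act on it, or carry the signal onward. They were taken by symbol from a comparison of 17597 genes, and all 9 had a row. They are the sensors Tlr3, Ddx58 (which encodes RIG-I), Ifih1 (which encodes MDA5) and Dhx58 (which encodes LGP2), the kinase Eif2ak2 (which encodes PKR), the editing enzyme Adar, the adaptor Mavs, the kinase Tbk1 and the transcription factor Irf3.

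RIG-I and MDA5 are helicases that bind double-stranded RNA in the cytoplasm and then engage MAVS on the mitochondrial surface, whereas TLR3 reads double-stranded RNA inside endosomes. Both routes reach TBK1, which phosphorylates IRF3, and IRF3 then enters the nucleus and switches on interferon genes. Embryonic stem cells are known for a weak interferon response, and N6-methyladenosine (m6A), the mark that METTL3 writes on RNA, is known to limit the formation of double-stranded RNA.

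The cells were mouse embryonic stem cells (mES cells) with 2 X chromosomes and an interspecific Cast x 129S background, measured by sequencing of total RNA. In them, both Mettl3 alleles carry a C-terminal FKBP12-based degron and 1 Xist allele carries a TetOn promoter. In 4 libraries the cells were untreated, and in the other 4 they received dTAG-13, the small molecule that triggers destruction of the tagged METTL3 protein, for 26 hours. Clone C3 and clone H5 each gave 2 replicates to either group. All the cells, untreated ones included, carried the degron and the Xist promoter, grew on fibroblast feeders with serum and LIF, and received no Dox, so Xist was not induced. No library of cells without the degron stood beside them in this comparison, so a response to dTAG-13 itself cannot be told apart from METTL3 loss.

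The values come from the authors' deposited table, which compares both groups in a single fit and gives for each gene a mean count (read counts divided by size factors, averaged over all 8 libraries), a log2 fold change, its standard error (SE) and an adjusted p. It holds no values per library, so the spread between libraries enters only through the SE, and whether the groups overlap could not be examined. The p-values measure the spread between libraries of 2 clones. Positive values were taken to mean a higher level after dTAG-13; the table does not name its numerator, and every direction given here would turn if the contrast were inverted. The level in each group was estimated from the mean count and the fold change, taking the groups as equal in size. In bulk RNA, fewer cells of a type and less RNA per cell cannot be told apart.

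The mean counts of all genes added up to 14573400 normalised reads. Mettl3 RNA does not check the depletion, since the degron acts on protein; its log2 fold change was -0.092 (SE 0.31, adjusted p = 0.886). All 8 stem cell markers were abundant, from a mean count of 1415 for Klf4 to 11934 for Pou5f1. The 17 fibroblast feeder markers tested summed to a mean count of 2180, or 0.015% of gene counts. None of them passed the threshold (an adjusted p under 0.05), and their median log2 fold change was 0.12. Their mean counts ran from 0.421 for Twist2 to 1261 for S100a6, with 345 for Tagln, 127 for Fbln2, 116 for Thy1 and 103 for Acta2, and Col1a1, Col3a1 and Dcn, which define fibroblasts, had 19.8, 8.38 and 7.50. The SEs of Acta2 (0.93) and Tagln (0.56) both stood at the 99.8th percentile among genes of similar abundance, so these RNAs varied more between libraries than nearly all others of their level. None of 5 leukocyte markers passed either; Cd68 had a mean count of 182 and Ptprc of 1.56. The part of RNA from feeders or other cells in the changes of the 9 genes was not tested.

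Of the 9 genes, 3 passed the threshold: Mavs and Irf3 rose and Ddx58 fell. Among all genes tested 20.0% passed it, 10.7% higher and 9.35% lower. Centring the fold changes on the median of abundant genes moved the split over all genes from 1881 higher and 1645 lower to 2200 higher and 1239 lower, but left the directions of Mavs, Irf3 and Ddx58 as they were. All 3 lay among the 6 members that reached a mean count of 100, a range in which 28.3% of genes passed. None of the 3 members below it passed, where 9.39% of genes did. The adaptor and the last transcription factor of the route thus rose and a sensor at its head fell. Tbk1, the kinase between Mavs and Irf3, did not pass (log2 fold change -0.17). An order of change along the route was not tested.

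**Figure D1:**
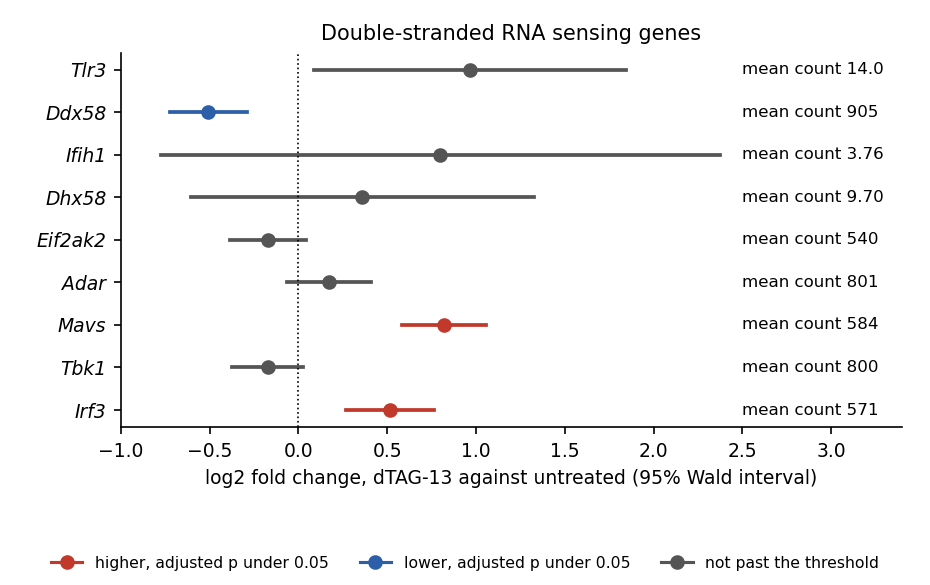
Log2 fold change of each gene between dTAG-13 and untreated cells (x axis), with its 95% Wald interval and its mean count over all 8 libraries; genes are ordered from sensors to signal factors. The intervals of Mavs and Irf3 lie above 0 and that of Ddx58 below 0, while those of Ifih1, Dhx58 and Tlr3, with mean counts of 14.0 or less, are the widest.

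Ddx58 (chromosome 4, 40203773 to 40239828, minus strand, GRCm38) was the only abundant one of the sensors Tlr3, Ddx58, Ifih1 and Dhx58, and its RNA fell. Its mean count was 905, with an estimated level of 1063 in untreated cells and 748 with dTAG-13. The log2 fold change was -0.51 (SE 0.11, 95% interval -0.72 to -0.29), a level 0.704 times that of untreated cells (0.606 to 0.817), and the adjusted p was 9.74e-05. Ranked among 1377 genes of similar abundance, the change of Ddx58 lay at the 5.05th percentile and its SE at the 31.0th, so it was measured more precisely than most genes of its level. It also passed the threshold under every correction for GC content, mean count and centring that was tried.

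The cytoplasmic sensors Ifih1 and Dhx58 were at the edge of detection. Ifih1 (chromosome 2, 62595798 to 62646255, minus strand), whose product MDA5 favours long duplexes, had a mean count of 3.76, with estimated levels of 2.74 untreated and 4.78 with dTAG-13. Its log2 fold change was 0.80 (SE 0.80, 95% interval -0.78 to 2.38, adjusted p = 0.556), and at this depth a change under 4.24-fold would not have passed. Dhx58 (chromosome 11, 100694884 to 100704271, minus strand), whose product LGP2 lacks the signalling domain of RIG-I and MDA5 and modulates both, had a mean count of 9.70. Its estimated levels were 8.49 untreated and 10.9 with dTAG-13, a log2 fold change of 0.36 (SE 0.49, 95% interval -0.61 to 1.33, adjusted p = 0.691), and 2.42-fold was the smallest change that could pass. For both genes the interval spans 0 and reaches past a doubling, so a rise or fall smaller than these limits was not detectable at this depth.

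Tlr3 (chromosome 8, 45395665 to 45411080, minus strand), the endosomal receptor, had the largest estimated change of the 9 genes as deposited and did not pass the threshold; with the trend with mean count removed its change was 0.77, below the 0.85 of Mavs. Its mean count was 14.0, and the estimated level went from 9.47 to 18.5. Tlr3 had a log2 fold change of 0.97 (SE 0.45, 95% interval 0.09 to 1.85). The unadjusted p was 0.0316, and the adjusted p was 0.122. Its value stayed on that side of the threshold under the other settings, where the adjusted p ranged from 0.0628 to 0.261. The median log2 fold change of 640 genes of similar abundance was itself 0.21.

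The kinase that binds double-stranded RNA and the editing enzyme that acts on it were both well measured, and neither passed the threshold. Eif2ak2 (chromosome 17, 78852564 to 78882573, minus strand) encodes PKR, which phosphorylates eIF2 alpha on binding double-stranded RNA and so slows translation. It had a mean count of 540 and estimated levels of 571 untreated and 508 with dTAG-13. On the log2 scale the change was -0.17 (SE 0.11, 95% interval -0.38 to 0.04, adjusted p = 0.300), which leaves room for a level between 0.766 and 1.03 times that of untreated cells. Adar (chromosome 3, 89715022 to 89753446, plus strand) encodes ADAR1, which converts adenosine to inosine in duplexes and thereby keeps cellular RNA from being sensed. Its mean count was 801, with 754 estimated in untreated cells and 849 with dTAG-13. On the log2 scale Adar differed by 0.17 (SE 0.12, 95% interval -0.06 to 0.41, adjusted p = 0.353), and the interval covers 0.958 to 1.33 times the untreated level. A change of 1.22-fold in Eif2ak2 or 1.24-fold in Adar would have been enough to pass. The counts do not separate the long and short forms of ADAR1. Exons of Chrnb2 on the opposite strand cover 16.8% of the exonic bases of Adar; Chrnb2 had a mean count of 15.0.

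Downstream of the sensors, Mavs rose, with the smallest p of the 9 genes. Mavs (chromosome 2, 131234063 to 131248025, plus strand), the mitochondrial adaptor onto which both RIG-I and MDA5 signal, had a mean count of 584 and rose from an estimated 422 to 745. The log2 fold change was 0.82 (SE 0.12, 95% interval 0.58 to 1.06), a 1.77-fold rise (1.50 to 2.08), with an adjusted p of 1.82e-09. Ordered by p, Mavs stood at place 134 of the 17597 genes. Ranked among 1433 genes of similar abundance, its change was at the 98.8th percentile. Across the corrections the log2 fold change ranged from 0.77 to 0.87, and Mavs is the member that also passed a Bonferroni correction over all features.

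Irf3 (chromosome 7, 44997648 to 45002848, plus strand), the transcription factor at the end of the route, rose by a smaller step. It had a mean count of 571, with 470 estimated in untreated cells and 672 with dTAG-13. Its log2 fold change was 0.52 (SE 0.13, 95% interval 0.27 to 0.76), a 1.43-fold rise (1.21 to 1.70), with an adjusted p of 0.000672. Removing the trend with GC content lowered it to 0.42, still past the threshold (adjusted p = 0.00984). Tbk1 (chromosome 10, 121546455 to 121586787, minus strand), the kinase between MAVS and IRF3, did not pass. Its mean count was 800, and the estimated level was 848 untreated and 752 with dTAG-13. On the log2 scale Tbk1 differed by -0.17 (SE 0.10, 95% interval -0.37 to 0.03, adjusted p = 0.259), or 0.771 to 1.02 times the untreated level.

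**Figure D2:**
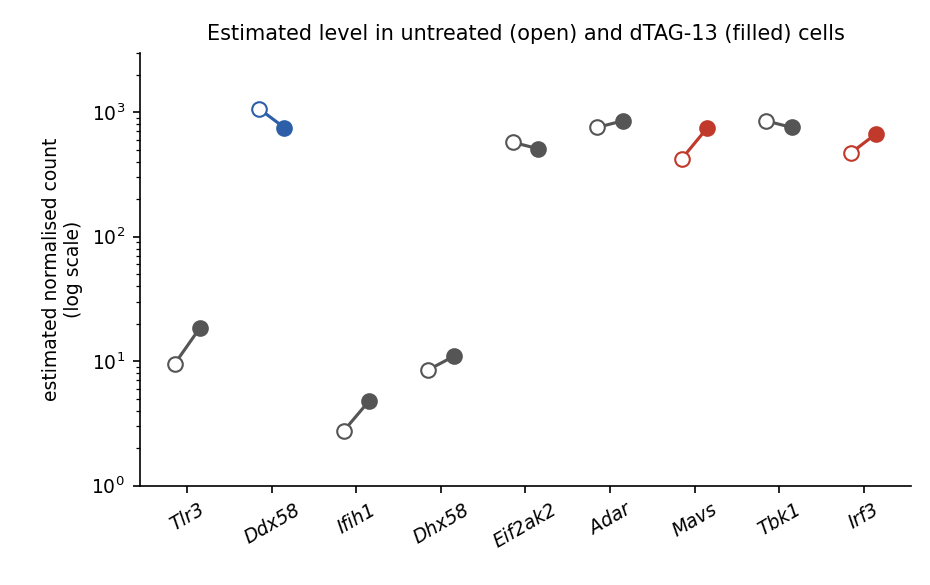
Estimated normalised count of each gene (y axis, log scale) in untreated cells (open points) and with dTAG-13 (filled points), joined by a line; red marks a rise and blue a fall past the threshold, grey no call. The levels are estimates from the mean count and the fold change, without an error of their own. They fall into 6 genes between 422 and 1063 and 3 genes under 20.

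Levels of the 9 genes were ordered per length, as mean count per kilobase over the median length of the protein-coding transcripts of each gene. Irf3 was highest at 657, followed by Tbk1 at 462, Ddx58 at 302, Adar at 214, Mavs at 197 and Eif2ak2 at 125. Tlr3 followed at 5.78, Dhx58 at 4.02 and Ifih1 at 0.828. With the longest transcript as the length, Irf3 came to 281, Tbk1 to 265 and Ddx58 to 234, which kept these 3 at the top, while Mavs at 191 then stood above Adar at 136, and Dhx58 at 4.02 above Tlr3 at 3.17. No spread of the levels over libraries was given, so which neighbours in this order differ was not tested. The gap between the 6 abundant genes and the 3 scarce ones was there with either length. Of the sensors Tlr3, Ddx58, Ifih1 and Dhx58, Ddx58 was thus the one in the abundant group.

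**Figure D3:**
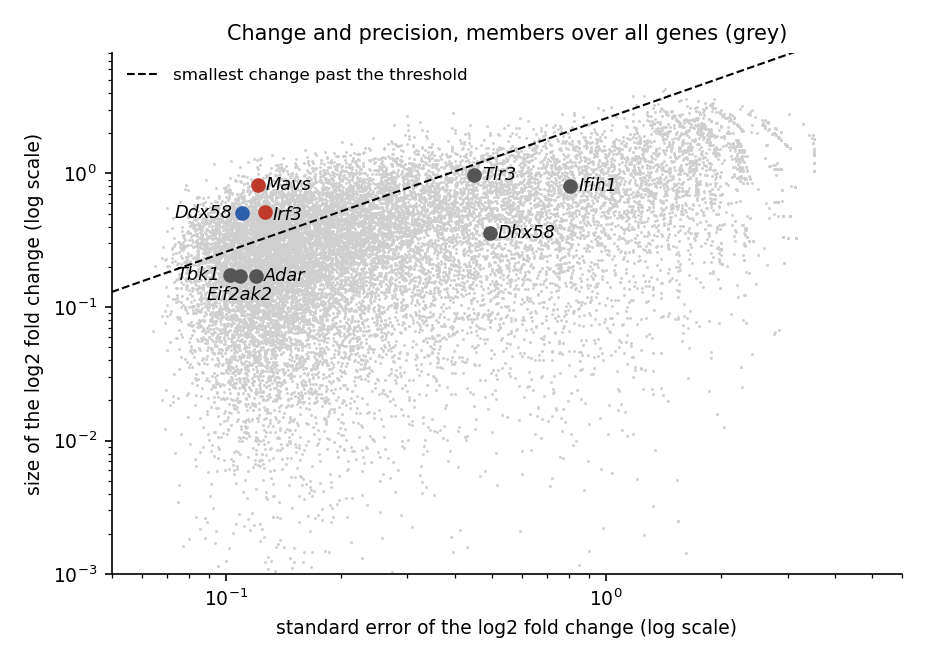
Size of the log2 fold change (y axis, log scale) against its SE (x axis, log scale) for 17578 genes in grey, with 19 genes outside the axes, and the 9 genes in colour; the dashed line is the smallest change that passed the threshold at each SE. Mavs, Ddx58 and Irf3 lie above the line, and Tlr3 and Ifih1, whose estimated changes are of the size of that of Mavs, lie below it because their SE is 0.45 and 0.80 against 0.12.

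The precision of the 9 genes was ordinary for their depth. Ranked among genes of similar abundance, the SE lay between the 15.6th percentile for Eif2ak2 and the 64.9th for Tlr3. For the 6 abundant genes the smallest change that could pass was between 0.27 and 0.33 on the log2 scale. The median log2 fold change was 0.36 over all 9 genes against 0.025 over all genes. It was 0.00066 over the 6 abundant members against -0.050 over all genes that reached a mean count of 100, and 0.80 over the 3 scarce ones against 0.23 over all genes below it. The positive median of the 9 thus comes with 3 scarce members, none of which passed.

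METTL3 methylates adenosine in a short consensus whose best-known form, written as DNA, is GGACT. Because m6A was not measured in these libraries, matches to GGACT are shown only to place the consensus on the 3 transcripts that changed. The longest coding transcript of Ddx58 holds 5 matches, that of Mavs 3 and that of Irf3 5. The match nearest the stop codon in each is printed with the 5 bases in capitals, 5′ to 3′ on the transcript strand, from the GENCODE transcripts of GRCm38.
Ddx58: ctcaaagtggaaGGACTttcattttgaaa
Mavs: gaggttctctgtGGACTcttaagaaagcc
Irf3: ggtggaggacatGGACTtccaggccactg

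The Ddx58 window (chr4:40205845-40205873, minus strand) lies in the coding part of exon 18 of 18 and the Irf3 window (chr7:45002307-45002335, plus strand) in the coding part of exon 8 of 8. The Mavs window (chr2:131247355-131247383, plus strand) lies in the 3′ UTR, in exon 7 of 7. Matches per kilobase did not separate the genes that changed from those that did not pass. Per kilobase there were 0.981 in Mavs, 1.29 in Ddx58 and 2.46 in Irf3. Among the others they ranged from 0.548 in Ifih1 to 2.90 in Dhx58, with 2.09 in Eif2ak2 and 1.82 in Tlr3. Mavs and Irf3 have 7 and 8 exons, near the number in the median gene (41.4th and 47.3rd percentiles), and GC contents of 53.9% and 56.7%. Ddx58, the gene that fell, has 18 exons (83.3rd percentile) and a GC content of 46.6%. Tlr3, which did not pass, has 7 exons as well. With 3 genes past the threshold these features are a description.

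Several of these genes are themselves known as interferon-induced, through promoter sites bound by IRF proteins. A core of such sites, GAAANNGAA, was searched on both strands in RefSeq promoter windows (250 bases before to 50 after each start site, GRCm38.p6). It occurred in 8.56% of 32851 windows. Counted per gene, over any window of the gene, it occurred in 8.54% of 12913 tested genes. Of the 9 genes, 8 had a window in the table. Matches were found for 4 of the 8: Ddx58, Ifih1, Adar and Eif2ak2. Adar had several windows: windows 1 and 2, at the annotated start of the gene, held no match. Its matches lay in window 3 (chr3:89730468-89730767), at a start site further downstream. None were found in the windows of Mavs, Tlr3, Irf3 and Tbk1, which says only that these letters are not there. The Tlr3 window (chr8:45410331-45410630, minus strand) lies inside the annotated gene. The sequence at its annotated start, 45411080, was thus not searched. The matches closest to each start site are printed 5′ to 3′ on the gene's strand with the motif in capitals; in Ddx58 the motif lies on the opposite strand and reads as its reverse complement.
Ddx58: ctgaggcagtTTCGATTTCctatggccag
Ifih1: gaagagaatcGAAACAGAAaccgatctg
Adar: tcaaggaaacGAAAGTGAActctgggg
Eif2ak2: agtccgccggGAAAACGAAacagaagaga

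These stretches lie at chr4:40239804-40239832 (minus strand) for Ddx58, chr2:62646206-62646233 (minus strand) for Ifih1, chr3:89730741-89730767 (plus strand) for Adar and chr17:78882536-78882564 (minus strand) for Eif2ak2. In Eif2ak2 a second match overlaps the one shown. The 4 genes with a match had log2 fold changes of -0.51, 0.80, 0.17 and -0.17 in the order printed, and Ddx58 was the one among them that passed the threshold. A match is a run of letters, not a bound site.

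The other genes of the pathway were taken from lists of known factors; in each list the gene with the highest mean count is also named, which is not an order per length. Of 106 such genes, 26 (24.5%) passed the threshold, 15 higher and 11 lower, against 20.0% of all genes. Their median log2 fold change was 0.014. Over all genes 10.7% passed higher and 9.35% lower, and the counts of each list below stand beside these shares. The split depended on scaling, with 19 higher and 8 lower on centring, 18 and 7 without the GC trend, and 13 and 6 without the trend with mean count. Beside the calls lost that are given with each gene, 7 genes that had not passed did so under 1 or more of these corrections: Aim2, Eif2b5, Ifi35, Ifitm2, Ifnar1, Ikbke and Jak1.

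Among 17 adaptors and ubiquitin ligases that carry or restrain the signal from the RNA sensors, 5 rose and none fell, with a median of 0.11. Of them 29.4% passed, against 20.0% of all genes (10.7% higher and 9.35% lower). Traf3 and Traf6, ubiquitin ligases that link MAVS and other adaptors to the kinases, had mean counts of 686 and 676. The log2 fold change was 0.82 for Traf3 (SE 0.14, adjusted p = 2.96e-07) and 0.77 for Traf6 (SE 0.099, adjusted p = 2.35e-12). Ticam1, the adaptor of TLR3 also called TRIF, rose by 0.96 at a mean count of 23.7 (SE 0.31, adjusted p = 0.0142). Rnf135, which encodes Riplet, a ligase that activates RIG-I, rose by 0.78 (SE 0.25, adjusted p = 0.0147), a call lost when the trend with mean count was removed (adjusted p = 0.0780). Tnfaip3, which encodes A20, a brake on NF-kB signalling, rose by 1.06 (SE 0.25, adjusted p = 0.000368). Otud4, a deubiquitinase with the highest mean count of this list, 6444, did not pass (log2 fold change -0.19, SE 0.11, adjusted p = 0.225).

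Among 23 other proteins that bind double-stranded RNA, 1 rose and 3 fell, with a median of -0.14. Adarb1, which encodes the second catalytically active editing enzyme ADAR2, rose by 0.67 at a mean count of 194 (SE 0.13, adjusted p = 7.94e-06). Zfr and Strbp, whose products share a DZF domain, had abundant RNA. Their log2 fold changes were -0.35 (SE 0.12, adjusted p = 0.0166) and -0.34 (SE 0.09, adjusted p = 0.00183). Neither kept its call when the GC trend was removed (adjusted p = 0.330 and 0.175). Both calls were also lost when the trend with mean count was removed (adjusted p = 0.156 and 0.0873). Ddx60, an interferon-induced helicase, fell by 0.97 at a mean count of 29.6 (SE 0.34, adjusted p = 0.0252), and lost its call when the GC trend was removed (adjusted p = 0.0885). Dhx9, a helicase that unwinds duplexes, with the highest mean count of the list at 5763, had a log2 fold change of -0.33 (SE 0.18, adjusted p = 0.197).

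Among interferon receptors and transcription factors, Ifngr1, a receptor subunit for interferon gamma, rose by 0.68 (SE 0.21, adjusted p = 0.0111), a call lost on removal of the trend with mean count (adjusted p = 0.0514). Jak1, a receptor kinase with the highest mean count of them at 1199, had a log2 fold change of 0.23 (SE 0.10, adjusted p = 0.0890), and passed on centring and on removal of the trends with GC content and with mean count (adjusted p = 0.0304, 0.0193 and 0.0203). Irf7 was not analysed here.

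Of 26 interferon ligands and induced genes tested, 2 rose and 4 fell, with a median log2 fold change of 0.15. Those that fell were Xaf1, an antagonist of apoptosis inhibitors (-1.14, SE 0.27, adjusted p = 0.000482), Ifitm1 (-0.49, SE 0.12, adjusted p = 0.00109), Ifitm3 (-0.39, SE 0.13, adjusted p = 0.0189) and Samhd1, a nucleotide hydrolase that restricts viruses (-0.51, SE 0.18, adjusted p = 0.0321). Ifitm1 and Ifitm3 encode membrane proteins, and their RNAs were abundant, with mean counts of 2833 and 2417. Their relative Ifitm2, at 3356, had a log2 fold change of -0.35 (SE 0.15, adjusted p = 0.0812). Ifitm2 passed on removal of the GC trend (adjusted p = 0.0233). Those that rose were Trim21, an antibody receptor of the cytoplasm (0.64, SE 0.23, adjusted p = 0.0289), and Cxcl10, a chemokine (1.54, SE 0.58, adjusted p = 0.0402). Cxcl10 had a mean count of 7.48, and both rises were lost when the trend with mean count was removed (adjusted p = 0.0939 and 0.136), as was the fall of Ifitm3 (adjusted p = 0.148). The call of Samhd1 was lost on centring (adjusted p = 0.0609). Ifnb1, Ifna4, Ifit3, Ifi44, Usp18 and Ccl5 were not analysed here.

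Of 10 NF-kB genes, Relb and Nfkb2, the subunits of the noncanonical branch, rose by 0.84 (SE 0.16, adjusted p = 7.00e-06) and 0.58 (SE 0.13, adjusted p = 0.000149). Chuk, which encodes the kinase that activates that branch and had the highest mean count of the 10 at 1294, fell by 0.58 (SE 0.15, adjusted p = 0.00200). Among 9 genes of eIF2, the substrate of PKR, and its regulators, Eif2ak4, which encodes another eIF2 kinase, rose by 0.27 (SE 0.093, adjusted p = 0.0258). The subunits Eif2s1 and Eif2s2 fell by 0.29 (SE 0.094, adjusted p = 0.0176) and 0.31 (SE 0.098, adjusted p = 0.0131). Those falls were lost when the GC trend was removed (adjusted p = 0.477 and 0.322). They were also lost when the trend with mean count was removed (adjusted p = 0.535 and 0.459). The fall of Eif2s1 was lost on centring as well (adjusted p = 0.0618). Eif2s3x, with the highest mean count of the 9 at 13360, had a log2 fold change of -0.23 (SE 0.091, adjusted p = 0.0583).

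Of 6 genes of cytosolic DNA sensing, 2 rose and none fell, so 33.3% passed, against 20.0% of all genes. Their median log2 fold change was 0.94. Only 2 of the 6 reached a mean count of 100, and the median over all genes below it was 0.23. Tmem173, which encodes STING, rose by 1.87 at a mean count of 28.0 (SE 0.31, adjusted p = 1.33e-07). Trex1, a DNase that removes cytosolic DNA, rose by 1.35 at a mean count of 282 (SE 0.21, adjusted p = 5.74e-09). All exonic bases of Trex1 lie within exons of Atrip on the same strand, so reads of both cannot be fully separated; the log2 fold change of Atrip was 0.095 (adjusted p = 0.623). Of 5 genes of the endosomal Toll-like receptors and their signalling, 1 rose and none fell, with a median of 0.057. Unc93b1, the chaperone that brings TLR3 and its relatives to endosomes, rose by 1.83 at a mean count of 25.8 (SE 0.34, adjusted p = 2.56e-06). Irak1, a kinase with the highest mean count of the list at 945, did not pass (log2 fold change 0.055, SE 0.13, adjusted p = 0.830). Tmem173, Trex1 and Unc93b1 kept their calls under the corrections for centring, GC content and mean count.

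**Figure D4:**
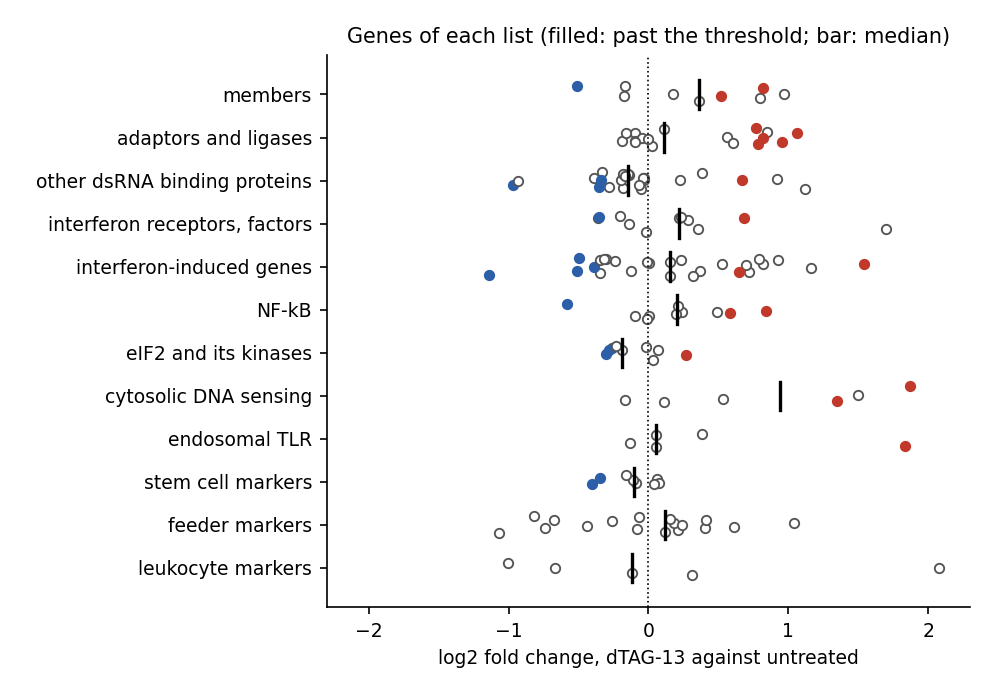
Log2 fold change between dTAG-13 and untreated cells (x axis) of every gene tested in each list, with points shifted at random along the y axis within a list; filled points passed the threshold (red higher, blue lower), open points did not, and the black bar is the median. In the adaptors and ligases, 5 points are filled on the right and none on the left, and no feeder or leukocyte marker is filled.

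Beside these, the stem cell markers Tdgf1 and Dppa5a fell by 0.35 (SE 0.10, adjusted p = 0.00728) and 0.40 (SE 0.12, adjusted p = 0.00937), and the other 6 of the 8 did not pass. Both falls were lost when the trend with mean count was removed. The part of any shift in cell state in the changes of the 9 genes was not tested.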

How the data were processed

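The authors removed ribosomal reads with bowtie2, aligned pairs with STAR to N-masked mm10, kept unique alignments, removed duplicates with Picard MarkDuplicates and ran TEtranscripts, which applies the Wald test of DESeq2 to all 8 libraries. The extraction text of the labels describes chromatin RNA, whereas the molecule label and methods give total RNA. It is not certain that counting used strand, which makes genes with antisense overlaps uncertain.

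The deposited signal column is the authors' mean of counts divided by size factors; the authors also deposited log2 fold changes with SEs, a Wald score, and p-values, raw and adjusted by the Benjamini-Hochberg method. These are the authors' own comparison of both groups, and no model was refitted. Score, p and adjusted p were recomputed from the fold change and SE in all 18694 features (17597 genes, 1097 transposable element subfamilies) and were equal within 1e-06.

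Computed here, with Python 3.11.15, pandas 2.3.3 and scipy 1.17.1, were 95% Wald intervals, estimated group levels, and the smallest change that could pass (2.59 SEs, the smallest score past the threshold). Corrections subtracted the median change of genes at or above a mean count of 100, or a running median over 501 genes by GC content or mean count, and repeated the test. The Wald test and its adjustment, as recomputed here, were also run on simulated data, with no result reported here. Positions came from GENCODE vM21. Named were all members and, from each list, up to 6 genes past the threshold with the smallest p and the gene with the highest mean count; after their values were seen, genes that passed only under a correction were added. Members and lists were chosen with earlier results of these data known. Protein sequences were not used here. The results of some listed genes are not reported here.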

Additional observations from a re-analysis of the deposited data

How the results depend on the processing

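Under 10 other settings, 105 of 122 recomputed values kept their direction and their side of the threshold or stayed close, 11 became weaker, 6 moved and none reversed. Of those that moved, 5 were levels per length taken with the longest transcript. A minimum change of 2-fold left 0 of the 9 members, 531 genes in all and 6 pathway genes past the threshold. A Bonferroni correction left 1 member (Mavs), 747 genes and 7 pathway genes. The median log2 fold change of the members was 0.00066 over the 6 with a mean count of at least 100. Mavs, Irf3 and Ddx58 kept their calls under centring, both trend removals, adjustment over genes only, both filters on mean count and the looser threshold of 0.1. No paired analysis was possible because the table holds no values per library. For the same reason leaving out each replicate, values within each clone, and another count test could not be run, and it is not known whether 1 library or clone carries a change. Depth limits Tlr3, Dhx58 and Ifih1 most. The direction of the contrast could not be checked from the table.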
